A study of Drosophila melanogaster with 12 samples.

Results

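The phototransduction cascade genes described here are norpA, rdgA, trp, trpl, inaD, inaC, ninaC, rdgC, Arr1 and Arr2, 10 of the 15423 genes in the deposited table, chosen by a list of symbols with no threshold on a measured value. In the table norpA and rdgA are on chromosome X, ninaC and Arr1 on 2L, trpl, inaD and inaC on 2R, Arr2 and rdgC on 3L, and trp on 3R. Their mRNA was measured in heads of Drosophila melanogaster by 3' RNA-seq (digital gene expression, in which fragments next to the poly(A) tail are sequenced) in 4 groups of 3 libraries. The groups were ADAR hypomorph flies grown at 29°C, WT flies grown at 29°C, ADAR hypomorph flies grown at 18°C and WT flies grown at 18°C. The study asked whether ADAR, the enzyme that edits adenosine to inosine in RNA, takes part in the response of the head transcriptome to temperature. The hypomorph is described in the study as a strain with a transposon inserted in an intron of Adar and reduced ADAR levels, and its methods give the allele as Adar5G1. The WT strain of these libraries, the age and sex of the flies, the time of day of collection and the number of heads in a library are not given in the sources used here, and nothing was said of whether the strains share a genetic background. The libraries of a group are separate samples by their labels, but nothing says that they came from separate cultures, so p-values measure only the spread between these libraries, which may be technical.

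Flies see through a G protein cascade that runs in the rhabdomere, the stack of microvilli on each photoreceptor. Light turns rhodopsin into metarhodopsin, which activates the Gq protein and through it the phospholipase C encoded by norpA. Phospholipase C splits the membrane lipid PIP2 and opens the cation channels encoded by trp and trpl, through which calcium and sodium enter. The diacylglycerol kinase of rdgA turns over the lipid product of this reaction. The PDZ scaffold INAD, product of inaD, holds phospholipase C, the TRP channel and the eye-specific protein kinase C of inaC in a signalling complex, and ninaC encodes a class of myosin with a kinase domain that also belongs to the rhabdomere. The arrestins of Arr1 and Arr2 bind metarhodopsin and end its activity, and the calcium-dependent phosphatase of rdgC removes phosphates from rhodopsin. Mutants of several of these genes lose the light response or have degenerating retinas.

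The strain labels were checked at Adar, with the values of a group given throughout in the order of replicate 2, replicate 3 and the library without a replicate number. Adar was at 23.5, 21.7 and 24.6 CPM in ADAR hypomorph heads at 29°C, against 39.5, 42.3 and 37.3 CPM in WT heads at 29°C (CPM, a gene's count scaled to a fixed size of the TMM-normalized library, where TMM is edgeR's scaling for library composition). At 18°C it was at 22.5, 28.0 and 37.7 CPM in the hypomorph and at 40.9, 35.2 and 40.2 CPM in WT. The strains were apart at 29°C and overlapped at 18°C, where the unnumbered hypomorph library reached the WT range. On the log2 scale Adar differed by -0.77 (SE 0.14) at 29°C and by -0.41 (SE 0.14) at 18°C, lower in the hypomorph, with adjusted p-values of 0.000859 and 0.0424 (edgeR's quasi-likelihood test, Benjamini-Hochberg adjustment over 9553 genes). The call at 18°C was lost in 8 of 12 fits that each left out 1 library, and over all 12 the log2 fold change ran from -0.62 to -0.25. It was lost without hypomorph replicate 2 or 3 or WT replicate 2 or unnumbered library at 18°C, and without replicate 3 or the unnumbered library of either strain at 29°C. The strains also differed at w, the X-linked eye pigment transporter gene white, which was at 32.4 ± 2.54 CPM in the hypomorph and 2.67 ± 0.21 CPM in WT at 29°C (SD, n = 3), with a similar difference at 18°C. Total counts ranged from 4409119 to 8806472 per library. In every library the 10 members had at least 223 counts each, and all 10 passed the filter on low counts.

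All 10 members were higher in ADAR hypomorph heads than in WT heads, at 29°C and at 18°C. The log2 fold change, ADAR hypomorph over WT, ran from 0.68 (rdgC) to 1.13 (Arr1) at 29°C, with a median of 0.94, and from 0.51 (trpl) to 1.51 (Arr1) at 18°C, with a median of 0.95. The median over all 9553 genes tested was 0.00 at 29°C and 0.01 at 18°C. All 10 members passed an adjusted p of 0.05 as higher at each temperature, where 8.81% of all genes tested did at 29°C and 11.6% at 18°C. Adjusted p-values ran from 1.19e-09 (ninaC) to 2.18e-05 (rdgA) at 29°C and from 4.25e-10 (ninaC) to 0.00031 (trpl) at 18°C (edgeR's quasi-likelihood test, Benjamini-Hochberg adjustment). By the study's criterion, a log2 fold change past 1 with an unadjusted p under 0.05, 4 members were higher at 29°C and 4 at 18°C, beside 2.08% and 2.42% of all genes. For all 10, every hypomorph library was above every WT library of the same temperature, as was so for 17.5% of all genes at 29°C and 18.8% at 18°C. The exact permutation test of each member, two-sided, gave p = 0.1, the smallest that 3 libraries against 3 allow. Together the members took 2.25% ± 0.0447 of all counts in the hypomorph and 1.05% ± 0.0966 in WT at 29°C, and 1.97% ± 0.107 in the hypomorph and 0.671% ± 0.0449 in WT at 18°C (SD, n = 3). The measurement is of whole heads, so a larger share of photoreceptor cells in the hypomorph than in WT and more mRNA of these genes per photoreceptor cannot be told apart in it.

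**Figure D1:**
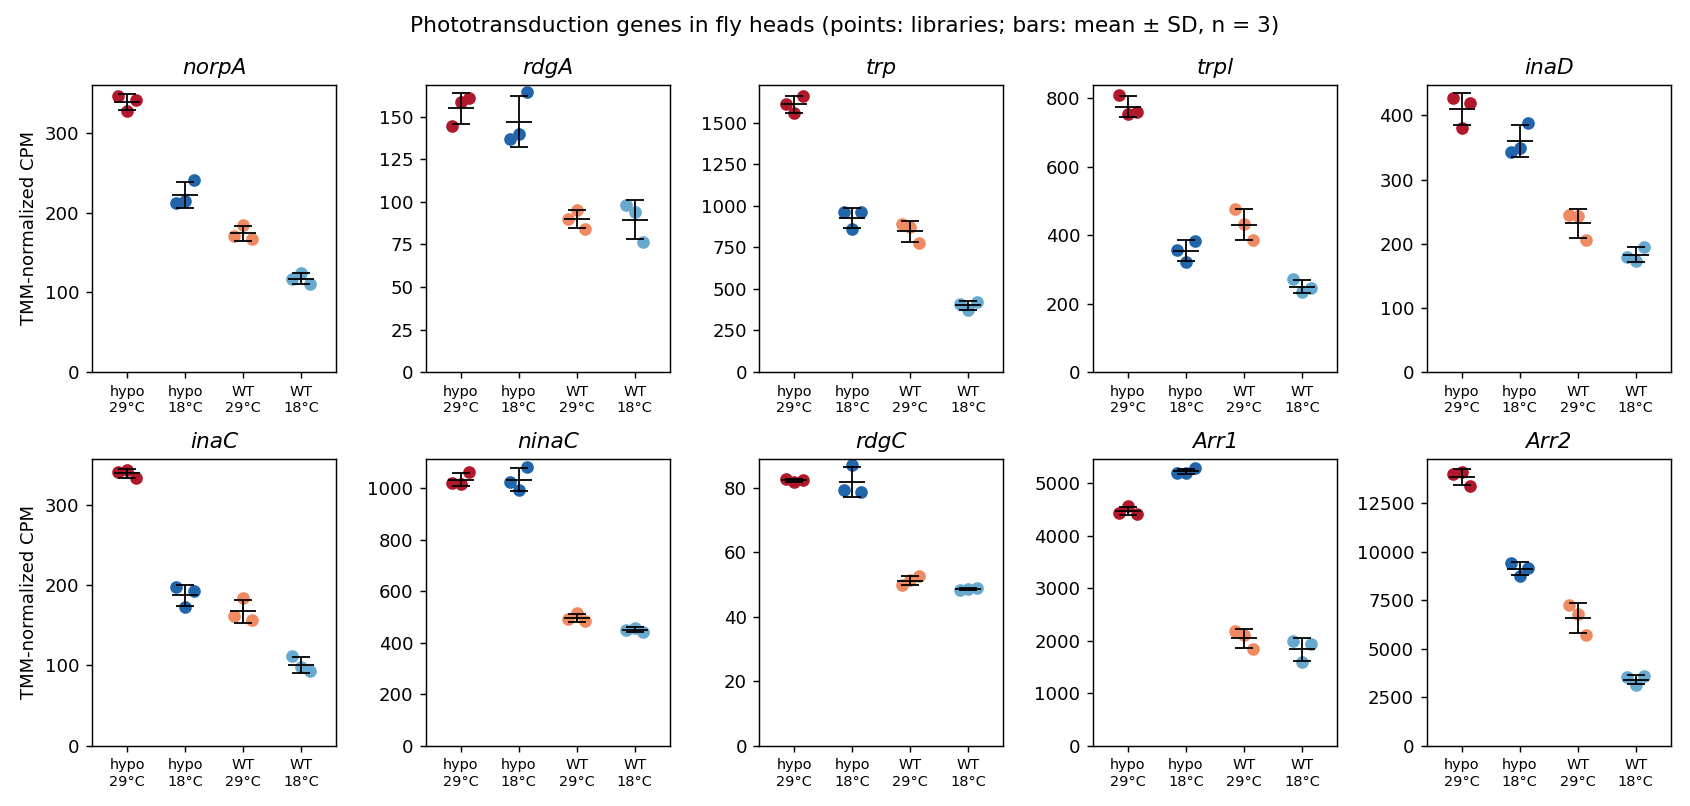
TMM-normalized CPM (vertical axes, linear from 0) of the 10 members in each library of ADAR hypomorph (hypo) and WT heads at 29°C and 18°C; points are libraries, and bars are the mean ± SD of 3. In every panel the hypomorph points lie above the WT points of the same temperature, by at least 1.42-fold in the means.

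**Figure D2:**
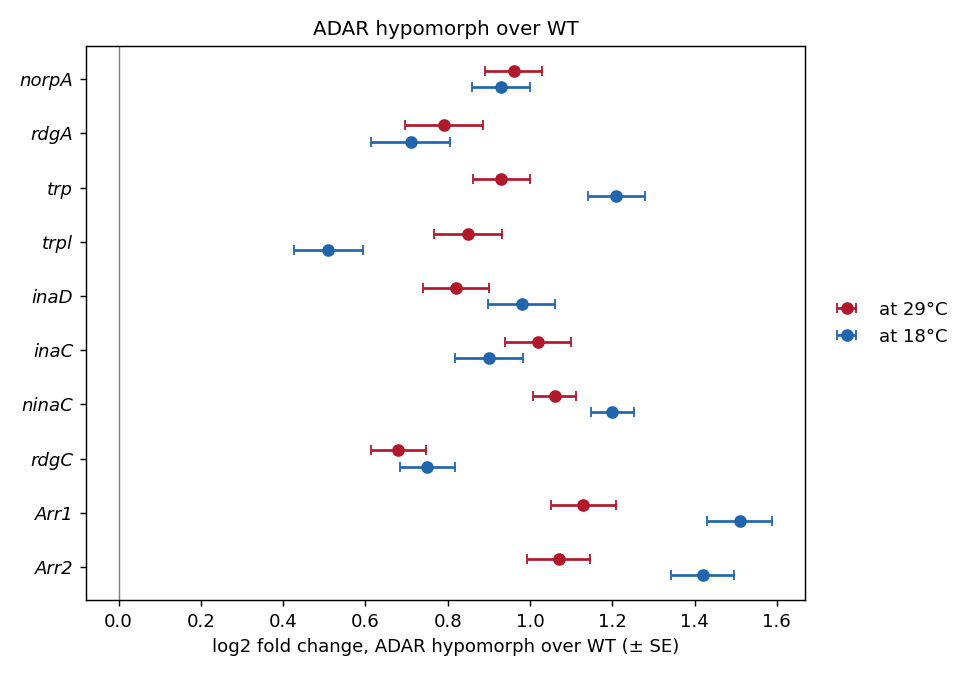
log2 fold change of each member, ADAR hypomorph over WT, at 29°C (red) and 18°C (blue), as points with bars of 1 standard error from edgeR's quasi-likelihood model. All points lie to the right of 0, between 0.51 and 1.51.

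With temperature the members did not move alike. norpA, trp, trpl, inaC and Arr2 were higher at 29°C than at 18°C in both strains, by log2 fold changes of 0.57 to 1.13, whereas rdgA and rdgC did not pass the test in either strain with TMM scaling. In ADAR hypomorph heads 5 members rose, 1 (Arr1) fell and 4 did not pass, beside 15.6% of all genes tested that rose and 16.6% that fell. With total counts in place of TMM, a scaling chosen after the data were seen, 5 rose and 3 fell, with ninaC (-0.19) and rdgC (-0.18) beside Arr1, where 8.80% of all genes rose and 31.4% fell under that scaling and the median of all genes moved by -0.19. In WT heads 7 members rose and 3 did not pass (edgeR's quasi-likelihood test), and all 10 had a log2 fold change of 0.00 or above, beside 16.1% of all genes that rose and 17.3% that fell. The median log2 fold change of the members, 29°C over 18°C, was 0.39 in the hypomorph and 0.46 in WT, against -0.01 and 0.01 over all genes tested. By the study's criterion 1 member was higher at 29°C in each strain, trpl in the hypomorph and trp in WT, beside 3.05% and 3.28% of all genes. The temperatures did not overlap for 6 members in the hypomorph and 8 in WT. Over all genes, 22.1% were higher at 29°C without overlap in each strain, and 23.3% in the hypomorph and 22.8% in WT were lower without overlap.

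**Figure D3:**
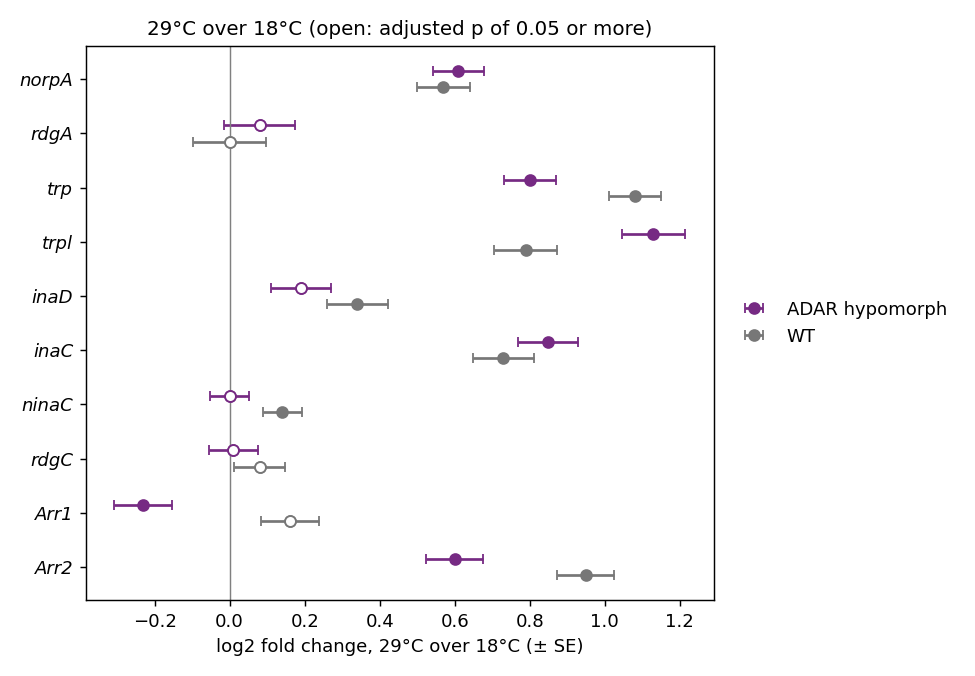
log2 fold change of each member, 29°C over 18°C, in ADAR hypomorph (purple) and WT heads (grey), as points with bars of 1 standard error; filled points have an adjusted p under 0.05. trp, trpl, inaC, norpA and Arr2 lie at 0.57 or above in both strains, and Arr1 in the hypomorph is the one filled point below 0, at -0.23.

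Of the enzymes of lipid signalling, both X-linked, norpA rose at 29°C in both strains and rdgA did not pass the temperature test in either. norpA, the phospholipase C, was at 347, 328 and 342 CPM in ADAR hypomorph heads and at 172, 185 and 167 CPM in WT heads at 29°C. At 18°C it was at 212, 215 and 242 CPM in the hypomorph and at 117, 124 and 110.1 CPM in WT. The 4 groups of norpA were apart from each other, with both hypomorph groups above both WT groups. Between strains its log2 fold change was 0.96 (SE 0.069) at 29°C and 0.93 (SE 0.07) at 18°C, and between temperatures 0.61 (SE 0.069) in the hypomorph and 0.57 (SE 0.07) in WT, with adjusted p-values of 7.45e-08, 1.02e-07, 7.46e-06 and 1.57e-05 in that order (edgeR's quasi-likelihood test).

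rdgA, the diacylglycerol kinase, was at 145, 159 and 161 CPM in the hypomorph and at 89.9, 95.2 and 84.4 CPM in WT at 29°C, and at 137, 140 and 164 CPM in the hypomorph and 98.1, 94.4 and 76.4 CPM in WT at 18°C. Within each strain the temperatures overlapped. The strain difference was 0.79 (SE 0.095) at 29°C and 0.71 (SE 0.096) at 18°C on the log2 scale, and the temperature effect was 0.08 (SE 0.094, adjusted p = 0.573) in the hypomorph and 0.00 (SE 0.097, adjusted p = 0.992) in WT by edgeR's quasi-likelihood test. An interval of 2 standard errors about the temperature effect of rdgA ran from -0.11 to 0.27 in the hypomorph and from -0.19 to 0.20 in WT. In the annotation of a later genome build than that of the files, rdgA overlaps CG10962 and CR43836 on the opposite strand. Their log2 fold changes between strains were -1.19 and -1.18 at 29°C, and -2.11 and -2.12 at 18°C. CG10962 had means of 11.8 CPM in the hypomorph and 26.9 CPM in WT at 29°C. At 18°C its means were 21.7 CPM in the hypomorph and 92.9 CPM in WT, where rdgA had 89.6 CPM. CR43836 had nearly the same means, so the 2 are not separate evidence. rdgA also overlaps mir-4964 on the same strand, at 1.06 and 1.27, with group means of 1.37 to 3.47 CPM. Whether the counting used strand is not stated, and the part of these genes in the counts of rdgA was not tested.

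The light-activated channels trp and trpl rose at 29°C in both strains, trpl with the higher log2 fold change in the hypomorph and trp in WT. trp was at 1613, 1558 and 1662 CPM in ADAR hypomorph heads and at 891, 875 and 774 CPM in WT heads at 29°C, and at 962, 859 and 963 CPM in the hypomorph and at 409, 372 and 421 CPM in WT at 18°C. WT heads at 29°C and hypomorph heads at 18°C had overlapping levels of trp, and the other groups stood apart. The temperature effect on trp was 0.80 (SE 0.069, adjusted p = 5.42e-07) in the hypomorph and 1.08 (SE 0.069, adjusted p = 2.07e-08) in WT, and the strain effect was 0.93 (SE 0.069) at 29°C and 1.21 (SE 0.07) at 18°C, all as log2 fold changes from edgeR's quasi-likelihood model.

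trpl, which encodes the channel that moves out of the rhabdomere in light, was at 809.6, 754 and 761 CPM in the hypomorph and at 475, 431 and 385 CPM in WT at 29°C. At 18°C it was at 357, 323 and 384 CPM in the hypomorph and at 271, 233 and 244 CPM in WT. It was the only member whose WT libraries at 29°C were all above the hypomorph libraries at 18°C, and the closest of these libraries were at 385 CPM in WT and 384 CPM in the hypomorph. The temperature effect on trpl was 1.13 (SE 0.084, adjusted p = 1.05e-07) in the hypomorph and 0.79 (SE 0.084, adjusted p = 4.03e-06) in WT, and its strain effect was 0.85 (SE 0.083) at 29°C and 0.51 (SE 0.084) at 18°C, from the same edgeR model.

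Of the scaffold and the kinases, inaC rose at 29°C in both strains, and inaD and ninaC passed the test in WT and not in the hypomorph. Their responses did not differ between the strains past the threshold. The difference, hypomorph minus WT, was -0.16 for inaD (adjusted p = 0.583) and -0.14 for ninaC (adjusted p = 0.405, edgeR's quasi-likelihood test). inaC, the eye-specific protein kinase C, was at 340.4, 344 and 333 CPM in ADAR hypomorph heads and at 161, 184 and 157 CPM in WT heads at 29°C, and at 198, 173 and 192 CPM in the hypomorph and at 111, 97.4 and 92.8 CPM in WT at 18°C. As with trp, WT heads at 29°C overlapped hypomorph heads at 18°C. The temperature effect on inaC was 0.85 (SE 0.08, adjusted p = 1.19e-06) in the hypomorph and 0.73 (SE 0.082, adjusted p = 6.14e-06) in WT, and its strain effect was 1.02 (SE 0.08) at 29°C and 0.90 (SE 0.082) at 18°C (log2, edgeR's quasi-likelihood test).

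inaD, the scaffold, was at 427, 381 and 419.8 CPM in the hypomorph and at 245, 243 and 206 CPM in WT at 29°C, and at 343, 349 and 388 CPM in the hypomorph and at 179.9, 173 and 195 CPM in WT at 18°C. Its temperatures overlapped in the hypomorph, where the unnumbered library at 18°C was above replicate 3 at 29°C, and were apart in WT. The temperature effect on inaD was 0.19 (SE 0.079, adjusted p = 0.087) in the hypomorph and 0.34 (SE 0.081, adjusted p = 0.00382) in WT by edgeR's quasi-likelihood test, and without the unnumbered hypomorph library at 18°C the adjusted p in the hypomorph was 0.0448. The strain effect on inaD was 0.82 (SE 0.08) at 29°C and 0.98 (SE 0.081) at 18°C. In the later annotation inaD overlaps RpL23, an abundant ribosomal protein gene on the opposite strand, which differed between strains by -0.19 and -0.26 on the log2 scale at the 2 temperatures, in the direction opposite to inaD.

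ninaC, the myosin, was at 1021, 1018 and 1063 CPM in the hypomorph and at 492, 515 and 485 CPM in WT at 29°C, and at 1026, 994 and 1083 CPM in the hypomorph and at 451, 459 and 441 CPM in WT at 18°C. The hypomorph libraries of both temperatures lay in the same range, and the WT libraries at 29°C were all above those at 18°C. Its strain effect, 1.06 (SE 0.052) at 29°C and 1.20 (SE 0.052) at 18°C, had the lowest adjusted p of the members at each temperature. The temperature effect on ninaC was 0.00 (SE 0.051, adjusted p = 0.997) in the hypomorph and 0.14 (SE 0.052, adjusted p = 0.0466) in WT by edgeR's quasi-likelihood test. The call in WT was lost in 15 of 20 alternative fits.

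The arrestins had the highest strain effects of the members. With temperature Arr2 rose at 29°C in both strains, and Arr1 fell in the hypomorph. Arr1 was at 4429, 4559 and 4412 CPM in ADAR hypomorph heads and at 2187, 2116 and 1838 CPM in WT heads at 29°C, and at 5201, 5186 and 5281 CPM in the hypomorph and at 1989, 1587 and 1932 CPM in WT at 18°C. In the hypomorph all libraries at 29°C were below those at 18°C, and in WT the temperatures overlapped. The strain effect on Arr1 was 1.13 (SE 0.078) at 29°C and 1.51 (SE 0.079) at 18°C, the highest of the members at both temperatures. Its temperature effect was -0.23 (SE 0.077, adjusted p = 0.0356) in the hypomorph and 0.16 (SE 0.077, adjusted p = 0.134) in WT by edgeR's quasi-likelihood test. The call in the hypomorph was lost in 8 of 20 alternative fits, among them each fit without 1 of the 6 hypomorph libraries, where the log2 fold change was between -0.24 and -0.22.

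Arr2, which encodes the more abundant arrestin protein of the fly eye, was at 13991, 14115 and 13356 CPM in the hypomorph and at 7244, 6800.3 and 5715 CPM in WT at 29°C. At 18°C it was at 9434, 8755 and 9166 CPM in the hypomorph and at 3518, 3123 and 3585 CPM in WT. The 4 groups stood apart, with the hypomorph at 18°C above WT at 29°C. Its strain effect was 1.07 (SE 0.077) at 29°C and 1.42 (SE 0.077) at 18°C, and its temperature effect was 0.60 (SE 0.076, adjusted p = 2.1e-05) in the hypomorph and 0.95 (SE 0.076, adjusted p = 2.44e-07) in WT (edgeR's quasi-likelihood test).

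rdgC, the rhodopsin phosphatase, had the lowest counts of the members and a narrow spread. It was at 82.5, 81.8 and 82.3 CPM in the hypomorph and at 49.7, 51.3 and 52.6 CPM in WT at 29°C, and at 79.4, 87.0 and 78.7 CPM in the hypomorph and at 48.2, 48.6 and 48.9 CPM in WT at 18°C. The temperatures overlapped in the hypomorph and were apart in WT, with the closest libraries at 49.7 CPM at 29°C and 48.9 CPM at 18°C. Its strain effect was 0.68 (SE 0.066) at 29°C and 0.75 (SE 0.067) at 18°C, and its temperature effect was 0.01 (SE 0.065, adjusted p = 0.982) in the hypomorph and 0.08 (SE 0.068, adjusted p = 0.433) in WT by edgeR's quasi-likelihood test. An interval of 2 standard errors about the temperature effect ran from -0.12 to 0.14 in the hypomorph and from -0.06 to 0.21 in WT.

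The order of the 4 groups was read for each member from the libraries, since counts of 3' ends are not divided by transcript length and levels of different genes are not compared. WT heads at 18°C had the lowest mean for all 10 members, overlapping WT heads at 29°C for rdgA and Arr1. ADAR hypomorph heads at 29°C had the highest mean for 8 members, overlapping those at 18°C for inaD, rdgA and rdgC. For ninaC and Arr1 the hypomorph at 18°C had the highest mean, which overlapped the hypomorph at 29°C for ninaC and not for Arr1. Hypomorph heads at 18°C were above WT heads at 29°C without overlap for norpA, rdgA, inaD, ninaC, rdgC, Arr1 and Arr2. The 2 groups overlapped for trp and inaC, and trpl had the opposite order.

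The response to temperature of a strain was compared with that of the other by the difference of the log2 fold changes, hypomorph minus WT, which equals how far the strain effect at 29°C exceeds the one at 18°C. None of the 10 members passed an adjusted p of 0.05 in edgeR's quasi-likelihood test, where 2.32% of all genes tested did. At an unadjusted p under 0.05 there were 4 members, beside 13.9% of all genes, and DESeq2 called 1, Arr1, beside 311 of 9553 genes. The 4 were Arr1 (-0.38, SE 0.11, adjusted p = 0.0865), Arr2 (-0.35, SE 0.11, adjusted p = 0.112), trp (-0.28, SE 0.097, adjusted p = 0.165) and trpl (0.34, SE 0.12, adjusted p = 0.171). Both arrestins and trp had a lower response in the hypomorph than in WT and trpl a higher one, none of them past the threshold. Without the unnumbered WT library at 29°C, Arr1 and Arr2 passed it, beside 180 of 9759 genes tested in that fit. The other 6 had differences from -0.16 (inaD) to 0.12 (inaC). An interval of 2 standard errors for norpA ran from -0.16 to 0.23, and for rdgC from -0.25 to 0.12.

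Ratios of 2 members within a library do not depend on how libraries are scaled. These pairs were chosen after their values had been seen, so the ratios are a description without a test, and since the counts are not divided by length only the change of a ratio is read. Arr2 over Arr1 was 3.09 ± 0.0663 in ADAR hypomorph and 3.21 ± 0.102 in WT heads at 29°C, against 1.75 ± 0.0635 in the hypomorph and 1.86 ± 0.1 in WT at 18°C (SD, n = 3). The strains overlapped at each temperature and the temperatures did not overlap in either strain, with a log2 change of 0.83 in the hypomorph and 0.78 in WT. trp over trpl was 2.08 ± 0.0973 in the hypomorph and 1.97 ± 0.083 in WT at 29°C, and 2.62 ± 0.0992 in the hypomorph and 1.61 ± 0.108 in WT at 18°C. The strains overlapped in this ratio at 29°C and stood apart at 18°C, and the ratio was lower at 29°C in the hypomorph and higher at 29°C in WT. norpA over rdgA was 2.19 ± 0.18 and 1.52 ± 0.0426 in the hypomorph at 29°C and 18°C, and 1.94 ± 0.0357 and 1.32 ± 0.123 in WT at 29°C and 18°C. trp over inaD was 3.94 ± 0.16 and 2.58 ± 0.195 in the hypomorph at 29°C and 18°C, and 3.66 ± 0.0834 and 2.20 ± 0.0674 in WT at 29°C and 18°C. Both of these ratios were higher at 29°C in both strains without overlap.

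**Figure D4:**
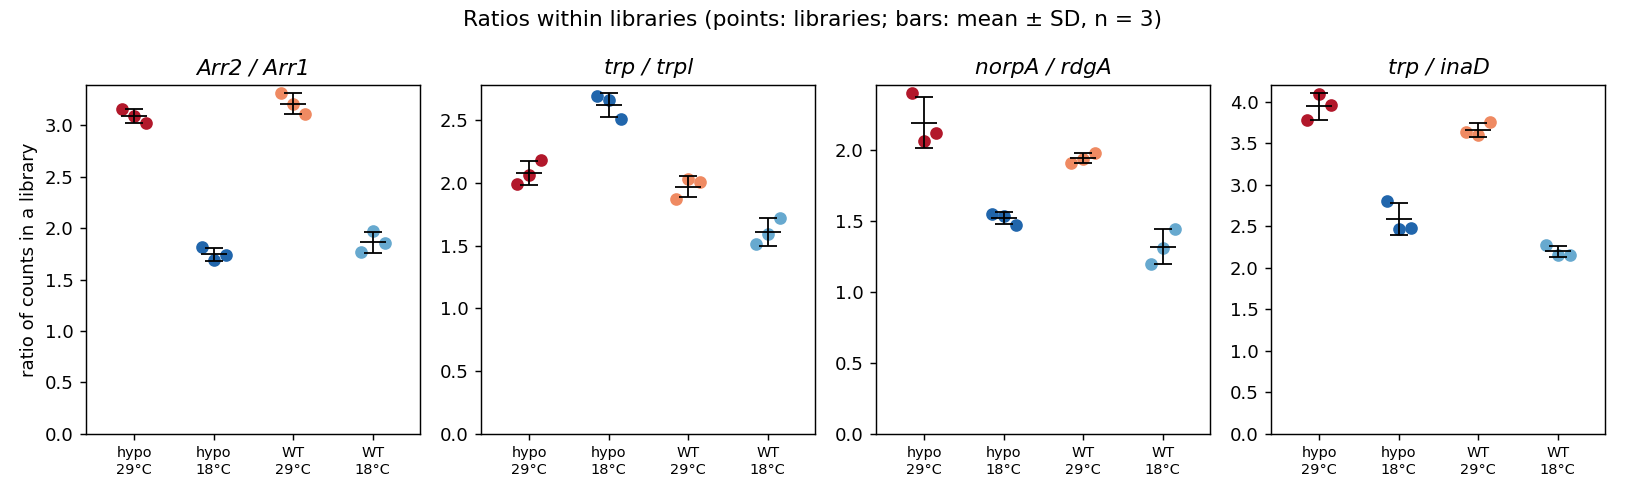
Ratio of the counts of 2 members within a library (vertical axes, linear from 0) in ADAR hypomorph (hypo) and WT heads at 29°C and 18°C; points are libraries, and bars are the mean ± SD of 3. Arr2 over Arr1 is near 3 at 29°C and below 2 at 18°C in both strains, whereas trp over trpl is highest in the hypomorph at 18°C, at 2.51 to 2.70.

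Across the 12 libraries the members moved together. The Pearson correlation of a member with the mean of the other 9, on the scale of log2(CPM + 1) standardized per gene, was between 0.792 (trpl) and 0.98 (inaD). The pairs with the highest correlation were ninaC with rdgC (0.989) and trp with Arr2 (0.984), and the lowest was trpl with Arr1 (0.529). Among the 6473 other genes with a mean of at least 10 CPM, those most like the mean of the 10 members were Rbp9 (r = 0.99), chp (0.987), Ank2 (0.986), Xport (0.986) and CG42508 (0.985). Rbp9 encodes an RNA-binding protein of the ELAV family, Ank2 a neuronal ankyrin and chp chaoptin, an adhesion protein of the rhabdomere surface. Xport encodes a chaperone for TRP and rhodopsin, and CG42508, also called Xport-B, had nearly the same counts as Xport, with group means within 2.6%. The 12 libraries form 4 groups and share strain and temperature, so these values describe the groups as much as the libraries.

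The rest of the cascade was read from lists of known genes. Over all genes tested, 8.81% were called higher in the hypomorph at 29°C and 11.6% at 18°C. Of the rhodopsins, the light receptors, 5 of 7 were higher in the hypomorph at 29°C and 5 of 7 at 18°C (edgeR's quasi-likelihood test). ninaE, the rhodopsin of the outer photoreceptors, was at 14662 ± 951 CPM in the hypomorph and 2482 ± 357 CPM in WT at 29°C, and at 11299 ± 262 CPM in the hypomorph and 1865 ± 175 CPM in WT at 18°C (SD, n = 3). Its strain effect, 2.56 at 29°C and 2.60 at 18°C on the log2 scale, was above that of every member, and Rh4, Rh5 and Rh6 were at 1.5, 1.39 and 0.72 at 29°C. Rh2, the rhodopsin of the ocelli, was the 1 rhodopsin that fell in the hypomorph (log2 fold change -0.27, at 29°C), and is named for that after its value was seen. With temperature, ninaE rose at 29°C by 0.38 in the hypomorph and 0.41 in WT, and Rh4 fell by 0.17 in the hypomorph and 0.24 in WT. In WT Rh5 also fell, by 0.45, and Rh6 rose by 0.26. Neither passed in the hypomorph, and the difference of responses was called for neither. In edgeR's quasi-likelihood test with total counts, the calls of Rh2 at 29°C (adjusted p = 0.0507) and of ninaE with temperature in the hypomorph (adjusted p = 0.106) were lost, and with DESeq2's size factors that of Rh4 with temperature in the hypomorph (adjusted p = 0.054). Under total counts ninaE was the 1 rhodopsin called as rising in WT, so the call of Rh6 there was lost.

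Of 22 other genes of phototransduction and the phosphoinositide cycle, 19 could be tested, and inaF-A, inaF-C and trpgamma had too few counts. In the hypomorph 15 rose and 4 did not pass at 29°C, and 16 rose and 3 did not pass at 18°C, with medians of 0.68 and 0.67. The subunits of the eye's G protein were among them. Galphaq was higher in the hypomorph by 0.99 at 29°C and 0.97 at 18°C, Gbeta76C by 1.09 and 1.16, and Ggamma30A by 1.17 and 1.13. rtp, which encodes retinophilin, a partner of NINAC, was higher by 1.37 at 29°C and 1.09 at 18°C, and inaF-B, needed for the TRP channel, by 1.11 and 1.25. The counts of inaF-D were nearly the same, with group means within 0.055% of those of inaF-B. Both are counted among the 19, so they are not separate evidence. With temperature 6 of the 19 rose and 2 fell in each strain. Over all genes, 15.6% rose and 16.6% fell in the hypomorph, and 16.1% rose and 17.3% fell in WT. With total counts 5 of the 19 rose and 6 fell in the hypomorph, beside 8.80% and 31.4% of all genes. In WT 6 rose and 3 fell with total counts, where 3162 of 9553 genes were called in either direction. inaF-B rose at 29°C by 1.00 in the hypomorph and 1.13 in WT, and Galphaq by 0.71 and 0.70, whereas Gbeta76C was at -0.01 in the hypomorph and 0.06 in WT and did not pass. laza, the phosphatase that makes diacylglycerol from phosphatidic acid, was at 54.5 ± 3.30 CPM at 29°C and 125 ± 6.47 CPM at 18°C in the hypomorph, and at 34.1 ± 2.30 CPM at 29°C and 78.5 ± 6.49 CPM at 18°C in WT (SD, n = 3). It fell at 29°C by 1.19 in the hypomorph and by 1.21 in WT on the log2 scale, opposite in direction to the members that passed in both strains.

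**Figure D5:**
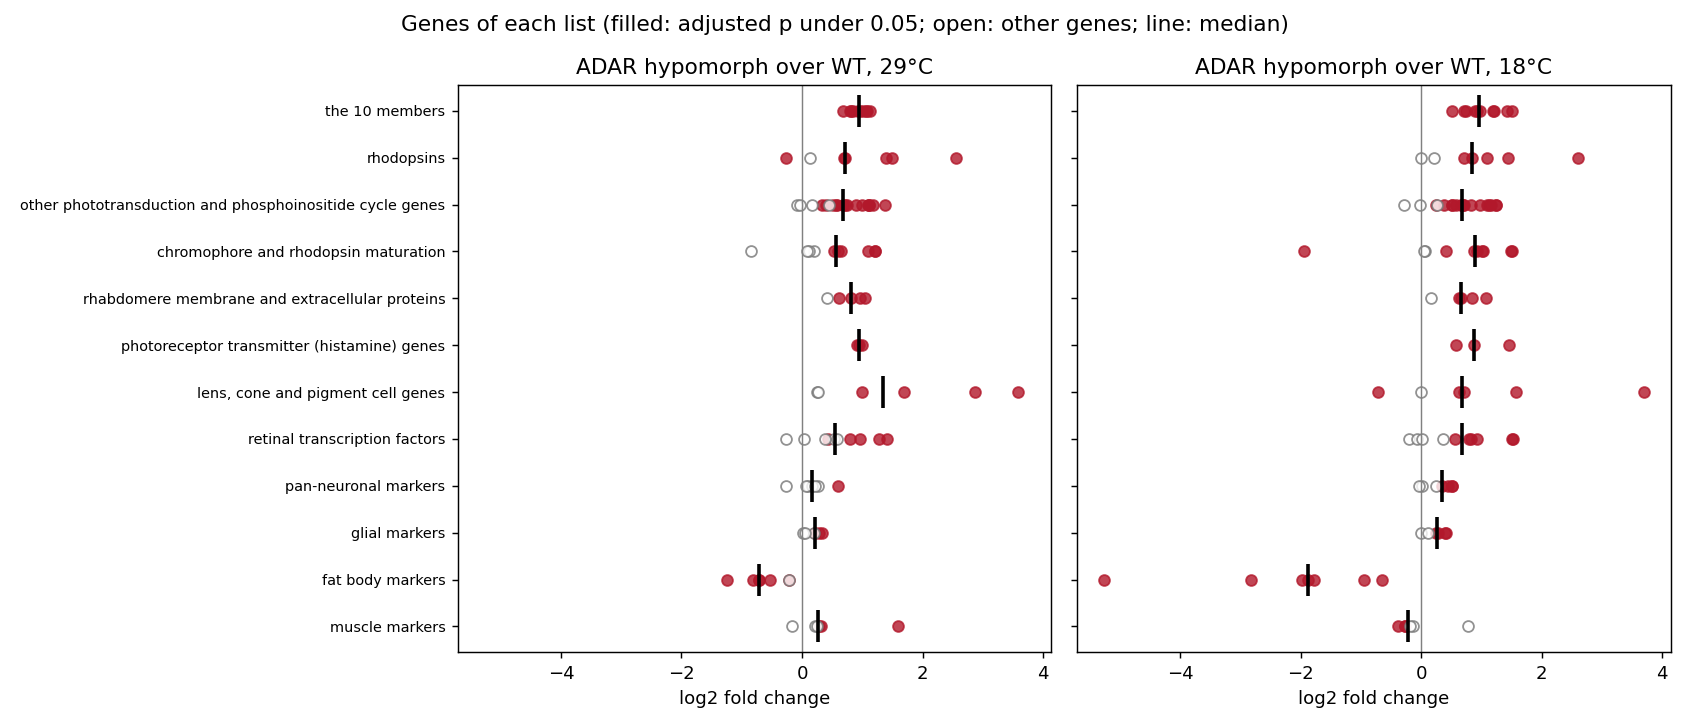
log2 fold change, ADAR hypomorph over WT, of every tested gene of each list at 29°C (left) and 18°C (right); points are genes, filled where the adjusted p is under 0.05, and the line is the median of the list. The members have medians of 0.94 and 0.95, and the fat body markers lie below 0 at both temperatures.

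Of the listed genes of the eye and of chromophore supply outside the cascade, some were higher in the hypomorph and others did not pass the test. ninaD and Cpr72Ec were lower in the hypomorph at 18°C. Of 10 genes for chromophore supply and rhodopsin maturation, 6 rose and 4 did not pass at 29°C. At 18°C 7 rose, 2 did not pass and 1 fell, ninaD, a scavenger receptor for carotenoid uptake (log2 fold change -1.94). Xport and CG42508 had the highest fold changes of this list, with 1.21 at 29°C for both and 1.49 and 1.5 at 18°C in that order. Each is counted among the 10, though their counts were nearly the same. Of 5 rhabdomere membrane and extracellular genes 4 rose and crb did not pass at each temperature, and among those that rose were chp (0.96 at 29°C and 1.07 at 18°C), prom (1.05 and 0.66) and eys (0.81 and 0.84). The 3 tested histamine genes rose at both temperatures, with Hdc, the enzyme that makes the transmitter of photoreceptors, at 0.94 and 0.87. Of 10 tested retinal transcription factors 5 rose and 5 did not pass at 29°C, and 6 rose and 4 did not pass at 18°C, with gl, which specifies photoreceptors, at 1.41 and 1.53. Of 6 genes of lens, cone and pigment cells, 4 rose and 2 did not pass at 29°C, and 4 rose, 1 fell and 1 did not pass at 18°C. Among them retinin, a lens protein gene, was higher by 1.70 at 29°C and 1.57 at 18°C, Cpr72Ec was at 2.87 at 29°C and -0.72 at 18°C, and Crys was at 0.25 and -0.01 and did not pass. The gene w, given above as a strain difference, was 1 of the 4 that rose at each temperature, by 3.59 and 3.69.

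Some markers of other head cells also differed between the strains, where 8.81% of all genes tested were higher in the hypomorph at 29°C and 11.6% at 18°C. Counting both directions, 1818 of 9553 genes were called at 29°C, 842 of them higher. At 18°C 2500 were called, 1109 of them higher. The summed level of 7 pan-neuronal markers was 716 to 767 CPM in the hypomorph and 599 to 682 CPM in WT at 29°C. At 18°C it was 621 to 729 CPM in the hypomorph and 535 to 554 CPM in WT. Of the 7, 1 was higher in the hypomorph at 29°C and 6 did not pass, and 4 were higher at 18°C and 3 did not pass. Their median log2 fold change was 0.16 at 29°C and 0.35 at 18°C, below that of the members. Of 6 glial markers 3 rose at 29°C and 4 at 18°C, with medians of 0.21 and 0.26 and sums of 1352 to 1378 CPM in the hypomorph and 1227 to 1297 CPM in WT at 29°C, and 1754 to 1929 CPM in the hypomorph and 1611 to 1724 CPM in WT at 18°C. Fat body markers moved the other way. Of the 7, 6 fell in the hypomorph at 29°C and 7 at 18°C. Their sum was 47256 to 54401 CPM in the hypomorph and 83070.1 to 87105 CPM in WT at 29°C. At 18°C it was 22724 to 34303 CPM in the hypomorph and 101991 to 110883 CPM in WT. Most of this sum came from the yolk protein genes Yp1, Yp2 and Yp3, at means of 32923, 39555 and 28370 CPM in WT at 18°C. The sex of the flies is not given, and its part in these levels was not tested. Of 6 muscle markers 3 rose at 29°C and 3 fell at 18°C. With total counts 1 of the 6 rose and 1 fell at 18°C, where 3420 of 9553 genes were called and 27.6% rose. The sums of the 6 were 2703 to 3065 CPM in the hypomorph and 2275 to 2516 CPM in WT at 29°C. At 18°C they were 2833 to 3067 CPM in the hypomorph and 3222 to 3718 CPM in WT. None of these markers was at 0 in a whole group, and the part of these cell types in the levels of the members was not tested. Scaled by total counts, all 10 members were called as higher in the hypomorph at both temperatures, beside 11.1% of all genes at 29°C and 27.6% at 18°C, and the lowest log2 fold change was 0.70, that of trpl at 18°C.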

How the data were processed

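Heads of ADAR hypomorph and WT flies at 29°C and 18°C were profiled by 3' digital gene expression, with polyA selection after fragmentation and the ligation of the first linker. The authors used TopHat for alignment to dm3 and ESAT for counting per gene, and the deposited counts of 15423 genes are raw whole numbers (tool versions and use of strand are not given in the sources used here). No molecular identifiers are named, so PCR copies are not independent molecules. Each group has libraries numbered 2 and 3 and 1 column without a number. A further 4 columns, of another temperature, were not used.

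Counts were fitted with edgeR 4.0.16 in R 4.3.3 (filterByExpr with minimum count 10, 9553 of 14611 genes with at least 1 count kept, TMM scaling, 1 quasi-likelihood model of the 4 groups in 12 libraries), and Benjamini-Hochberg adjustment ran over all genes tested. A gene was called at an adjusted p under 0.05. The biological coefficient of variation was 12.9%. Depth ranged from 4409119 to 8806472 counts. Libraries of a group differed by more than sampling noise (chi-square per degree of freedom 3.29 to 9.36), so none was counted as a copy. The members were taken by symbol, and their list and those of other genes were drawn up with earlier results of these data known. Named genes were the 10 members, Adar and w, up to 4 called genes per list and comparison with the largest change, and the 5 genes most like the members. All 10 members matched by symbol, and 91 of 91 listed genes by symbol or RefSeq synonym.

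When tested on simulated counts of 9429 genes, the model called 94% of 200 genes with a simulated strain effect at 29°C of log2 1, and 67.5% of 200 with such a difference between the responses. It also called 6 and 7 unchanged genes in that order. The members' differences of responses ran from -0.38 to 0.34, and how often differences of that size are called was not simulated. The alternatives tried included DESeq2 1.42.0, its size factors in edgeR, total counts (chosen after the data were seen), other filters on low counts, the replicate block, a fit of the compared groups alone, the study's criterion and leaving out each library. Further steps used Python 3.11.15, matplotlib 3.10.9, pandas 2.3.3, scipy 1.17.1 and numpy 2.4.6. No sequences or coordinates are given, as no genome of the files' build was used here.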

Additional observations from a re-analysis of the deposited data

Results flagged for a closer look

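The ratio of trp to trpl within a library changed with temperature in opposite directions in the strains. Its log2 change, 29°C over 18°C, was -0.33 in ADAR hypomorph heads and 0.29 in WT heads, a difference of -0.63, and in each strain every library of one temperature lay on the same side of every library of the other. The pair was chosen after its values were seen and this difference was not tested. In the model of single genes the difference of responses was -0.28 for trp and 0.34 for trpl, and neither passed an adjusted p of 0.05 in edgeR's quasi-likelihood test.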

How the results depend on the processing

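The strain effects kept their calls in every fit that used the adjusted p, with 10 of 10 members called at 29°C and at 18°C, also without each library in turn (10 to 10). By the study's criterion, which adds a log2 fold change past 1, 4 members passed for the strain at 29°C, 4 at 18°C, 1 for temperature in the hypomorph and 1 in WT. Without each library in turn, 5 to 6 members were called for temperature in the hypomorph, 6 to 7 in WT and 0 to 2 for the difference of responses. Over all genes these fits called 2514 to 3082, 2630 to 3270 and 154 to 214 in that order. The difference of responses was called for 3 members with total counts, 2 with all genes of at least 1 count, 1 with the replicate block and 1 with DESeq2, against 0 with TMM. Over all genes it was called for 297 of 9553 with total counts, 290 of 14611 with genes of at least 1 count and 77 of 9652 with the block. DESeq2 called 311 of 9553 and the fit with TMM 222 of 9553. Total counts moved the median of all genes by 0.19 for the strain at 18°C, -0.19 for temperature in the hypomorph and -0.13 for the difference, and with them the temperature effect on rdgC in the hypomorph was -0.18 (adjusted p = 0.0465, edgeR), against a log2 fold change of 0.01 with TMM. Of 990 single results of the members under alternatives, 952 stayed on the same side of the threshold, 23 lost a call and 14 gained 1. The remaining 1, this result of rdgC with total counts, changed direction and gained a call. Results that passed in neither fit were counted among the 952 whatever their direction.

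Whether the numbers shared by the groups pair the libraries cannot be settled with 2 numbered libraries per group. Deviations from the group means of same-numbered libraries correlated at -0.202 to 0.245 (mean 0.0039), and of libraries with other numbers at -0.305 to 0.327. Between hypomorph and WT at 29°C, same numbers gave 0.245 and 0.234, and other numbers -0.305 and -0.150. Between WT at 29°C and the hypomorph at 18°C, same numbers gave -0.202 and -0.170, and other numbers 0.327 and 0.126. With the replicate block in the 8 numbered libraries, 10, 10, 5, 7 and 1 members were called for the strain at 29°C, the strain at 18°C, temperature in the hypomorph, temperature in WT and the difference, and without the block in the same libraries 10, 10, 5, 7 and 0. Genes called over the whole table for the difference numbered 222, against 77 with the block, 69 without it in those 8 libraries and 311 with DESeq2. For the strain at 29°C they numbered 1818, against 1225 and 1233 in the 8 libraries, and for the strain at 18°C 2500, against 1598 with the block and 1670 without it in the 8 libraries. For temperature in the hypomorph they numbered 3075 of 9553, against 2076 of 9652 with the block and 2092 of 9652 without it. For temperature in WT they numbered 3190 of 9553, against 2414 of 9652 with the block and 2488 of 9652 without it. The cause of these changes was not tested. The members had 223 or more counts per library, and the 3 libraries per group cannot give an exact p below 0.1.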

Other observations

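Of the listed genes of the eye outside the cascade, Cpr72Ec and ninaA had a called difference between the strains in their response to temperature. Cpr72Ec, a cuticle protein gene of the corneal lens, was at 423 ± 70.8 CPM in ADAR hypomorph heads and 57.8 ± 4.05 CPM in WT heads at 29°C, and at 35.8 ± 8.59 CPM in the hypomorph and 59.4 ± 4.27 CPM in WT at 18°C (SD, n = 3). It was the 1 gene of the lens, cone and pigment cell list with a called difference of responses, 3.59 on the log2 scale (SE 0.20, adjusted p = 8.11e-08, edgeR's quasi-likelihood test). ninaA, the chaperone of the main rhodopsin, was at 182 ± 3.62 CPM in the hypomorph and 125 ± 5.24 CPM in WT at 29°C, and at 223 ± 10.6 CPM in the hypomorph and 109.6 ± 16.1 CPM in WT at 18°C, a difference of responses of -0.49 (SE 0.12, adjusted p = 0.0438, edgeR). Crys, which encodes the lens protein drosocrystallin, fell at 29°C by 1.73 in the hypomorph and by 2.00 in WT on the log2 scale, and its difference of responses did not pass the test.

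The level of Arr2 relative to ninaE also differed between the strains. The ratio of their counts was 0.945 ± 0.0598 in the hypomorph and 2.72 ± 0.697 in WT at 29°C, and 0.808 ± 0.0458 in the hypomorph and 1.84 ± 0.216 in WT at 18°C (SD, n = 3). The strains did not overlap at either temperature. This ratio was chosen after its values were seen and was not tested.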
